A study of Mus musculus with 72 samples.

Results

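Integration deserts are long stretches of the mouse genome in which no barcoded reporter is listed, and the reporters at their edges are described here. All listed integrations of 6 pools were sorted along chromosomes 1 to 19, a desert was a distance of 1000000 bp or more between 2 consecutive integrations, and both integrations that flank it were taken. This gave 204 deserts and 397 edge reporters, which are 2.27% of the 17500 integrations on these chromosomes and belong to a table of 17857 in all. Of the edge reporters, 386 lie at 1 desert and 11 lie between 2 deserts. Expression was not used to choose them.

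The pools, mPGK-A to mPGK-F, were made in EBRTcH3 mouse embryonic stem cells, a line that expresses the tetracycline-controlled transactivator from the ROSA26 promoter, grown with leukemia inhibitory factor, the MEK inhibitor PD0325901 and the GSK-3 inhibitor CHIR99021. All 6 carry the same reporter, driven by the mouse PGK promoter, the promoter of a housekeeping gene of glycolysis, and delivered with the transposase mPB on a piggyBac vector. Cells with low eGFP were sorted and grown for 5 days, small pools were expanded for 7 days, and each pool was split into 2 cultures grown for 7 more days. The submitters call these cultures technical replicates, so the spread between them is technical, and the 6 pools, all from the same cell line, were taken as the samples. The counts cover reporter barcodes only, so stem cell markers were not analysed here.

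TRIP, in which many reporters are integrated in parallel, reads the effect of genome position on a promoter: every reporter carries a random barcode, and its transcripts are counted against its copies in genomic DNA. The same promoter is known to give different output at different places, and compact chromatin, such as that at the nuclear lamina or at repeats, is known to lower the output of inserted genes. The piggyBac transposon is known to insert mainly into open chromatin near active genes, and its integrations are sparse in gene-poor chromatin. An integration enters the table only with a mapped position, so a desert here is a stretch without a listed integration.

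The barcodes identify single integrations. Those of the 5 edge reporters with the highest RNA to DNA ratio are shown first, 5′ to 3′, with the mm9 position as listed, because they mark where an edge reporter was most active.
chromosome 7, position 13599549, mPGK-E: gaggtttcagttcaat
chromosome 17, position 37216056, mPGK-C: ttaatctaagaattgg
chromosome 10, position 107135016, mPGK-C: ggcatttgttggagtg
chromosome 13, position 9762268, mPGK-D: ttggggaagccgtagc
chromosome 1, position 78597611, mPGK-C: attatgacgtatccga

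The 5 with the lowest level mark the other end of the range: all have DNA reads, and at most 3 RNA reads over both cultures.
chromosome 11, position 39911509, mPGK-E: ccgcttggcaaattct
chromosome 14, position 112954591, mPGK-D: cctcctaagttaatct
chromosome 2, position 62675759, mPGK-D: taatagaattatccct
chromosome 7, position 47059349, mPGK-F: ttttaaactcagatag
chromosome 14, position 109667354, mPGK-D: gtcggatatctgggga

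The reporter on the left of the largest desert is shown because its ratio lay far from that of the reporter on the right, at 47059349 above.
chromosome 7, position 39029964, mPGK-E: tcttgcctccgtccgg

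RNA and DNA reads summed over the listed barcodes ranged from 2880244 to 3508366 and from 3386477 to 3693449 per pool and culture. The level of a reporter is the log2 ratio of its RNA share to its DNA share, with 0.5 RNA reads added, averaged over both cultures and set relative to the pool median, so that a level of −1 is 2-fold below the median reporter. Each pool held 62 to 75 edge reporters, or 1.99% to 2.59% of its autosomal integrations. Edge and other reporters had median DNA counts of 1633 and 1670 over both cultures, and median RNA counts of 193 and 570.

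The 204 deserts together covered 311 Mb, or 13.0% of the 2396 Mb between the outermost listed integrations of the 19 autosomes. The median distance between neighbouring integrations was 63.4 kb, and 1.17% of the 17481 distances were deserts. Most deserts were short: their median size was 1.31 Mb with quartiles of 1.10 and 1.65 Mb, 134 were below 1.5 Mb, 47 were from 1.5 to below 2 Mb and 23 were 2 Mb or more. Chromosome 1 held the most, with 20, followed by chromosomes 6 and 7 with 18 each. Per 100 Mb of listed span, chromosomes 6 (12.3), 7 (12.1), 5 (11.4) and 3 (10.9) held more than chromosome 1 (10.4). Chromosomes 19 and 11 held the fewest, with 3 and 5. Chromosomes with more integrations per Mb held fewer deserts per 100 Mb (Spearman −0.76 across 19 chromosomes, a description, since both use the same integrations).

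Deserts took 27.9% of the listed span of chromosome 7, the highest share of the 19 autosomes. It held 6 of the 23 deserts of 2 Mb or more and 4 of the 10 of 3 Mb or more. The largest ran from 39029964 to 47059349, a distance of 8.03 Mb, and the others from 6312131 to 11053445 (4.74 Mb), from 20516138 to 24872168 (4.36 Mb) and from 31739886 to 34892826 (3.15 Mb). Chromosome 12 held a pair, from 17777348 to 21139799 (3.36 Mb) and from 21362286 to 25245365 (3.88 Mb), separated by 3 integrations of mPGK-A within 222 kb. Chromosome 8 held one from 19471747 to 22959585 (3.49 Mb) and one from 55605919 to 59029197 (3.42 Mb). The remaining ones lay on chromosome 14, from 41795627 to 45864112 (4.07 Mb), and on chromosome 2, from 174459633 to 177860636 (3.40 Mb). No mm9 annotation was used here, so the genes in or beside the deserts are not named.

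Reporters at desert edges were expressed at lower levels than other reporters. Edge levels ran from −12.27 to 6.08 with a median of −1.77, and other reporters had a median of 0.05. The mean edge level was −1.36 in mPGK-A, −1.76 in mPGK-B, −1.36 in mPGK-C, −1.82 in mPGK-D, −1.80 in mPGK-E and −2.01 in mPGK-F, and that of the other reporters lay between −0.19 and −0.11. The 6 edge means thus lay below all 6 means of other reporters, without overlap. The difference was −1.54 ± 0.27 (SD, n = 6 pools), a 2.91-fold lower ratio, and was negative in 6 of 6 pools. An exact two-sided sign-flip permutation test gave p = 0.03125, the smallest that 6 pools allow, and 0.05 after Benjamini-Hochberg adjustment over the 8 tests of this kind. The adjusted value lies at the threshold of 0.05, and it became 0.0625 where another of the 8 tests lost its smallest p.

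**Figure D1:**
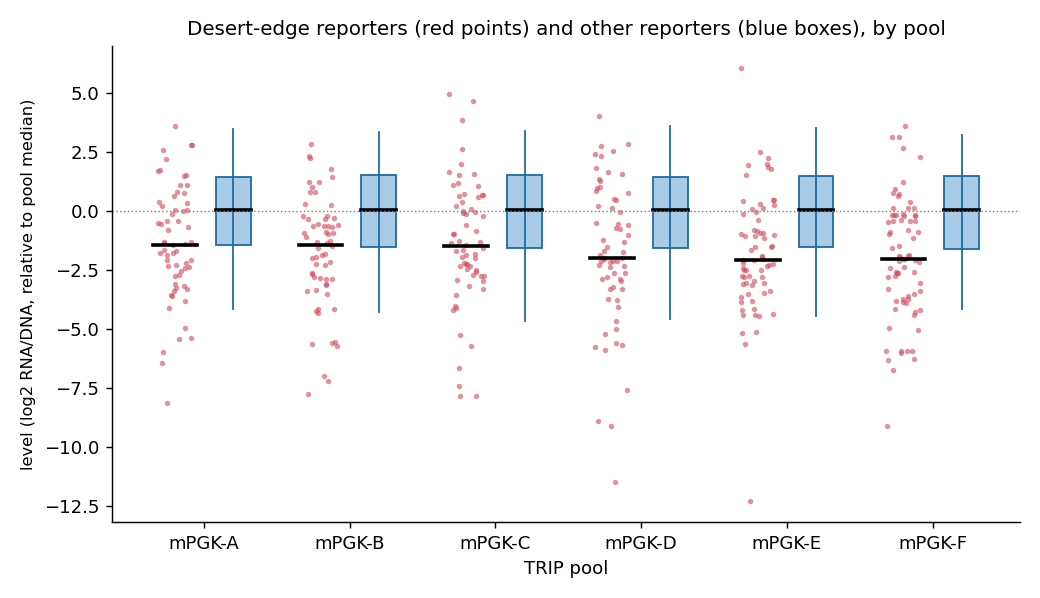
Level of each desert-edge reporter (red points, black bar at the median) and of the other autosomal reporters (blue box from the lower to the upper quartile, black bar at the median, line from the 5th to the 95th percentile) in each pool, on a log2 scale relative to the pool median. The edge medians lie below the medians of other reporters in every pool, while single edge reporters reach from −12.27 to 6.08.

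Of the 397 edge reporters, 299 (75.3%) lay below their pool median, compared with 49.2% of other reporters. By edgeR's quasi-likelihood test of RNA against DNA counts, 240 edge reporters (60.5%) were called lower than the pool median ratio at an adjusted p under 0.05, against a background of 33.7% of all 17857 integrations. Edge reporters called higher numbered 63 (15.9%), against 36.9% of all integrations. The share called lower was 56.3% in mPGK-C, the lowest of the pools, and 69.6% in mPGK-E, the highest. On single chromosomes, edges had a lower mean than other reporters on 18 of 19, with differences from −2.54 on chromosome 11 to 0.16 on chromosome 13.

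Very low reporters were more frequent at the edges than among all other reporters. A level more than 16-fold below the pool median was found for 64 of 397 edge reporters (16.1%, 95% Wilson interval 12.8% to 20.1%) and for 1062 of 17103 others (6.21%, 5.86% to 6.58%). Such intervals cover counting error only. The share at edges was 11.3% in mPGK-A and 20.0% in mPGK-F, the lowest and the highest pool, and no pool of other reporters exceeded 6.86%. The difference averaged 9.79 percentage points ± 3.34 (SD, n = 6 pools; exact sign-flip permutation p = 0.03125, adjusted 0.05). It was 6.07 points from culture 1 alone, 4.28 points with 5 RNA reads added (adjusted p = 0.0833) and 0.19 points for deserts of 2 Mb or more (adjusted p of 1). No RNA read was found for 10 edge reporters (2.52%) and 171 others (1.00%).

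The lowest edge reporter, on chromosome 11 at 39911509 in mPGK-E, had 0 RNA reads in both cultures beside 7192 and 7158 DNA reads. A floor of 3 RNA reads over both cultures puts it at least 1642-fold below its pool median. On chromosome 14 at 112954591, a reporter of mPGK-D with 4597 and 4578 DNA reads was at least 945-fold lower. On chromosome 2 at 62675759, a reporter of mPGK-D with 724 and 1130 DNA reads and no RNA read was at least 191-fold lower. These 3 had no RNA read in either culture, and the next 2 had a few in culture 2 only. The reporter of mPGK-F on chromosome 7 at 47059349, on the right of the largest desert, had 0 and 2 RNA reads beside 1297 and 1945 DNA reads, 620-fold lower from the summed reads (95% exact Poisson interval of the RNA count, 172-fold to 5116-fold). The reporter of mPGK-D on chromosome 14 at 109667354 had 0 and 3 RNA reads beside 1945 and 2112 DNA reads, 418-fold lower (143-fold to 2025-fold). Of these 5, 4 flank deserts of 1.09 to 1.66 Mb.

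The most active edge reporter lay on chromosome 7 at 13599549 in mPGK-E, on the left of a desert of 2.88 Mb, with 12325 and 13194 RNA reads beside 554 and 541 DNA reads. Its level was 6.05 and 6.12 in the 2 cultures, 67.9-fold above the pool median. A reporter of mPGK-C on chromosome 17 at 37216056 had 31060 and 29634 RNA and 2408 and 3020 DNA reads, and was 31.0-fold above. Chromosome 10 at 107135016 followed at 25.5-fold (mPGK-C), chromosome 13 at 9762268 at 16.3-fold (mPGK-D) and chromosome 1 at 78597611 at 14.4-fold (mPGK-C). For each of these 5 both cultures were high, and 3 of them had no other integration within 100 kb. In all, 4 edge reporters (1.01%) exceeded 16-fold above the median, compared with 2.51% of the others.

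An edge reporter at 1 desert can have near neighbours on 1 side only, and the 11 between 2 deserts have none. Edge reporters thus have few neighbours by the way they were chosen. No other integration of any pool lay within 100 kb of 66.2% of them, compared with 16.5% of other reporters. With no such neighbour, 263 edge reporters had a mean level of −2.10 and 2816 others −1.32. With 1 neighbour, the means were −1.51 (74 edges) and −0.71, and with 2 they were −0.70 (35 edges) and −0.15. With 3 to 4 neighbours, 22 edge reporters averaged 0.38 and the others 0.33, and the 3 edge reporters with 5 or more averaged 1.84, against 1.06. Edges were thus lower in the 3 sparsest classes and not in the 2 densest. Within classes of equal density the difference was −0.69 ± 0.30 (SD, n = 6 pools), negative in 6 of 6 pools (exact sign-flip permutation p = 0.03125, adjusted 0.05). With neighbours counted within 500 kb in place of 100 kb, it was −0.12 ± 0.40 (adjusted p = 0.58) and did not pass the test.

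Edge level did not follow desert size below 2 Mb, and the means were higher above. Edges of deserts from 1 to 1.5 Mb averaged −1.74 (259 reporters) and those from 1.5 to 2 Mb −1.99 (92). The 26 edges of deserts from 2 to 3 Mb averaged −1.29, and the 20 edges of larger deserts averaged −0.38 with a median of 0.15. Across all 397 edges, level and log size had Pearson's r = 0.09 and Spearman's rho = 0.03, given as a description of sites that share pools and deserts. Spearman's rho was −0.04 over the 351 edges of deserts below 2 Mb and 0.34 over the 46 edges of larger ones, where r was 0.12. Within pools rho ran from −0.20 (mPGK-F) to 0.32 (mPGK-B).

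**Figure D2:**
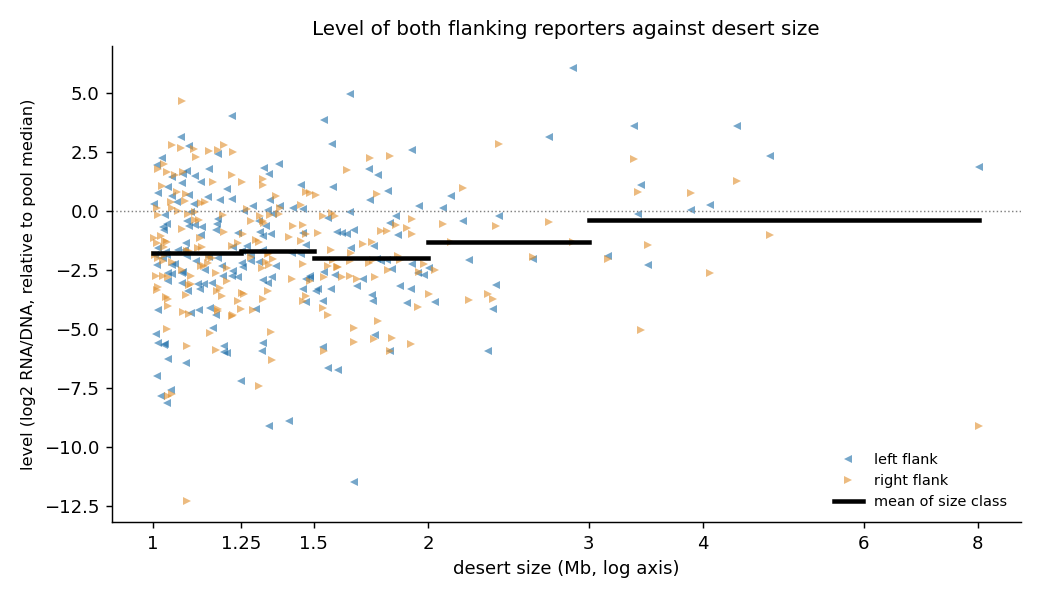
Level of the left and right flanking reporters (triangles) against the size of their desert on a log axis, with the mean of each size class as a black line. Means lie between −1.99 and −1.68 below 2 Mb and at −1.29 and −0.38 above, over 26 and 20 edge reporters.

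Reporters beside the largest deserts were not lower on average than those beside smaller ones, except in mPGK-F. Edges of deserts of 2 Mb or more (46) had mean levels of 0.01, −0.73, −0.69, −0.27, −0.40 and −2.33 in mPGK-A to mPGK-F, and edges of smaller deserts (351) had −1.65, −1.87, −1.40, −1.98, −1.96 and −1.94. The means at large deserts rest on only 11, 6, 3, 6, 7 and 13 reporters in mPGK-A to mPGK-F. The mean was higher at large deserts in 5 of 6 pools and lower in mPGK-F, and the difference of 1.06 ± 0.81 (SD, n = 6 pools) did not pass the test (exact sign-flip permutation p = 0.0625, adjusted 0.0833). It was 1.35 without mPGK-F, 0.65 without chromosome 7 and 0.18 for a split at 1.5 Mb. Of the 46, 47.8% were called lower and 26.1% higher by edgeR, against 33.7% and 36.9% of all integrations. Of the 92 edges of deserts of 1.5 to 2 Mb, 64 were called lower and 11 higher, and of the 259 edges of deserts below 1.5 Mb, 154 and 40. For deserts of 2 Mb or more alone, edges minus all other reporters gave −0.56 (adjusted p = 0.19), lower in 5 of 6 pools.

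The 20 flanks of the 10 largest deserts illustrate this spread, with 11 above and 9 below the pool median. The left flank of the 8.03 Mb desert on chromosome 7 (mPGK-E) had 2106 and 2039 RNA reads with 1433 and 1944 DNA reads, a level of 1.86. Its right flank (mPGK-F) had 0 and 2 RNA reads with 1297 and 1945 DNA reads, a level of −9.08. Both were called by edgeR, with adjusted p of 5.47e-05 and 5.50e-06. The 4.36 Mb desert of the same chromosome lay between a reporter of mPGK-A at 3.62 (1627 and 1571 RNA, 489 and 296 DNA reads) and a reporter of mPGK-D at 1.27, both called higher. At the 3.15 Mb desert both flanks, of mPGK-F, were called lower, with levels of −1.90 and −2.01. On chromosome 12 the outer flanks of the pair of deserts had levels of 3.63 on the left (5875 and 6182 RNA, 1298 and 1250 DNA reads, mPGK-F) and 0.77 on the right (mPGK-D). The flanks of the 4.07 Mb desert of chromosome 14 differed, at 0.25 and −2.63, as did those at 55605919 and 59029197 on chromosome 8, at 1.09 and −5.04. Those at 19471747 and 22959585 were both low, at −2.28 and −1.45.

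Level was lower the farther away the more distant of both adjacent reporters lay, over all 17500 autosomal integrations (Spearman −0.31, a description), and the desert edges lie at the end of that range. Reporters with both neighbours nearer than 10 kb averaged 1.21 (611 reporters), those with a wider distance of 50 to 100 kb 0.25 (3515) and those with 300 to 500 kb −1.07 (1984). Beyond that the means differed less: reporters averaged −1.49 when the wider distance was 500 to 750 kb (959) and −1.30 when it was 750 to 1000 kb (347). At desert edges the means were −1.74 for 1000 to 1500 kb, −1.99 for 1500 to 2000 kb and −0.89 for 2000 kb or more. The means of single pools had SDs (n = 6 pools) of 0.15, 0.23, 0.33, 0.78 and 0.83 in these 5 classes, and their ranges overlapped from each class to the next. Just outside the desert threshold, 120 reporters beside distances of 900 to 1000 kb averaged −1.05, and just inside, 97 beside 1000 to 1100 kb averaged −1.82. Pool means had SDs of 1.00 and 0.81 in these classes. They overlapped, from −2.59 to 0.55 outside and from −2.71 to −0.85 inside. No test was made of these values at the threshold.

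**Figure D3:**
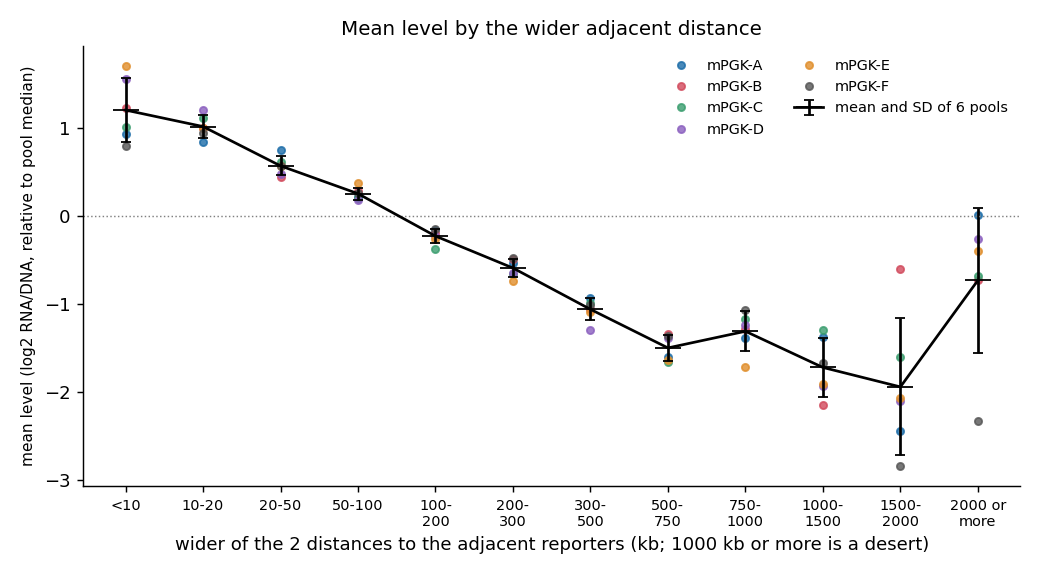
Mean level in each pool (coloured points) of all autosomal reporters by the wider of the 2 distances to the adjacent reporters, with the mean and SD of the 6 pools in black. Pool averages fall from 1.20 below 10 kb to −1.06 for 300 to 500 kb, and the ranges of the wider classes, which include the deserts, overlap.

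Counted in order from the edge, mean levels over the pools were higher at each step inward. The edge reporters, of order 1, averaged −1.68 ± 0.27 (SD, n = 6 pools), the next inward −1.31 ± 0.27, then −0.92 ± 0.44, −0.65 ± 0.32 and −0.45 ± 0.32 at order 5. Orders 6 to 10 averaged −0.37 ± 0.22, orders 11 to 20 −0.24 ± 0.11 and later ones −0.01 ± 0.04. The median distance from the edge was 160 kb at order 2, 332 kb at order 3, 591 kb at order 5 and 1038 kb at orders 6 to 10. Order 5 lay above order 1 in 6 of 6 pools, by 1.24 ± 0.44 or 2.36-fold, while order 2 lay above order 1 in 5 of 6, the exception being mPGK-A. The rise up to order 5 was 74.1% of the difference between order 1 and reporters beyond order 20. Orders 1 to 5 held 397, 371, 346, 315 and 307 reporters, since stretches between deserts with few integrations have no higher orders. Stretches shorter than 1 Mb had a lower mean of stretch means than longer ones, −1.60 against −0.61. These means include the edge reporters, which make up a larger part of short stretches. How far this change of stretches adds to the rise was not tested. Edge reporters lay below those of order 6 to 10 (1396 reporters) in 6 of 6 pools, by 1.31 ± 0.39 on the log2 scale (exact sign-flip permutation p = 0.03125, adjusted 0.05). For deserts of 1.5 Mb or more the difference was −0.88 (adjusted p = 0.0625), and for deserts of 2 Mb or more it was −0.37, negative in 3 of 6 pools (adjusted p = 0.88).

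**Figure D4:**
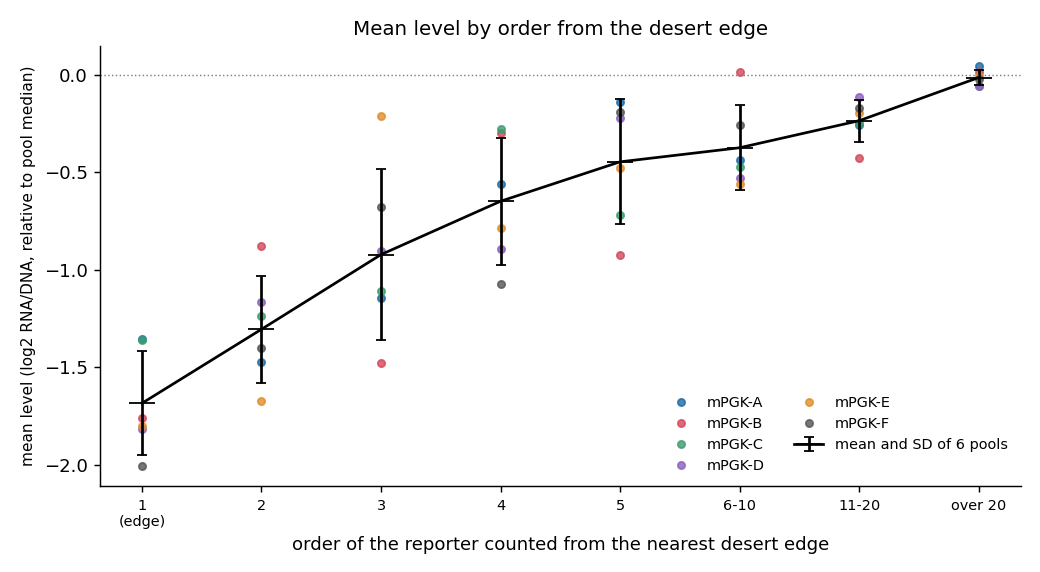
Mean level in each pool (coloured points) by the order of a reporter counted inward from the nearest desert edge, with the mean and SD of the 6 pools in black. Means rise from −1.68 at the edge to −0.45 at order 5 and −0.01 beyond order 20. Stretches with few reporters are absent from the higher orders, and local density was not equal between orders.

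The edgeR calls, made from the same counts as the levels and so not a separate result, moved in the same order. The share called lower was 60.5% at the edge, 52.8% at order 2, 47.4% at order 3, 39.7% at order 4 and 37.8% at order 5, against 33.7% of all integrations. The share called higher was 15.9%, 23.2%, 25.4%, 29.5% and 30.6%, against 36.9%.

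By distance in place of order, the means of the nearest classes did not follow a steady course. Edges left out, reporters up to 20 kb from an edge averaged −0.58 (56 reporters), those at 20 to 50 kb −1.08 (67), those at 50 to 100 kb −0.01 (99) and those at 100 to 200 kb −0.18 (240). The next class, 200 to 500 kb, averaged −0.45 (648). Reporters 500 to 1000 kb away averaged −0.31 (1082), and 2008 reporters between 1 and 2 Mb averaged −0.17. Pool means had SDs of 0.54 to 0.84 in the classes up to 200 kb, so the order of these classes is uncertain. Reporters up to 100 kb from an edge always have that edge as a neighbour within 100 kb. Such a neighbour was absent for 23.3% of reporters at 100 to 200 kb and for 21.1% at 200 to 500 kb. The comparisons by distance were not made at equal density. The 1110 reporters within 500 kb of an edge averaged 0.28 ± 0.16 (SD, n = 6 pools) below the 15993 farther ones, lower in 6 of 6 pools by 0.03 to 0.48 (exact sign-flip permutation p = 0.03125, adjusted 0.05). Within 200 kb the difference was −0.21 with an adjusted p of 0.13. For deserts of 1.5 Mb or more it was −0.14 (adjusted p = 0.59), and for deserts of 2 Mb or more it turned to 0.54, positive in 5 of 6 pools (adjusted p = 0.19).

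Edge reporters were compared with the nearest reporters on either side. Over 384 pairs of an edge and the next inward integration, Pearson's r was 0.34, and over the 204 pairs across a desert it was 0.10. These are descriptions, since the pairs share reporters, and the difference was not tested. Pairs less than 50 kb apart had r = 0.43 (92 pairs), with a mean of −0.82 at the edge and −1.24 inward. Pairs 50 to 200 kb apart had means of −1.49 and −1.05, and pairs farther apart had −2.39 and −1.70. The inward reporter was the higher in 210 of 384 pairs (54.7%), and in 41 of the 92 pairs less than 50 kb apart.

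Across a desert, both flanks lay below their pool medians at 120 of 204 deserts (58.8%), both above at 16 and on opposite sides at 68. As 75.3% of all edge reporters lay below their pool medians, unrelated flanks would often both be low. The count alone therefore does not show that the flanks of a desert go together. In 34 of the 204 pairs both flanks came from the same pool. At 38 deserts the 2 flanks differed by more than 16-fold. The left flank was the higher at 104 of 204 deserts.

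**Figure D5:**
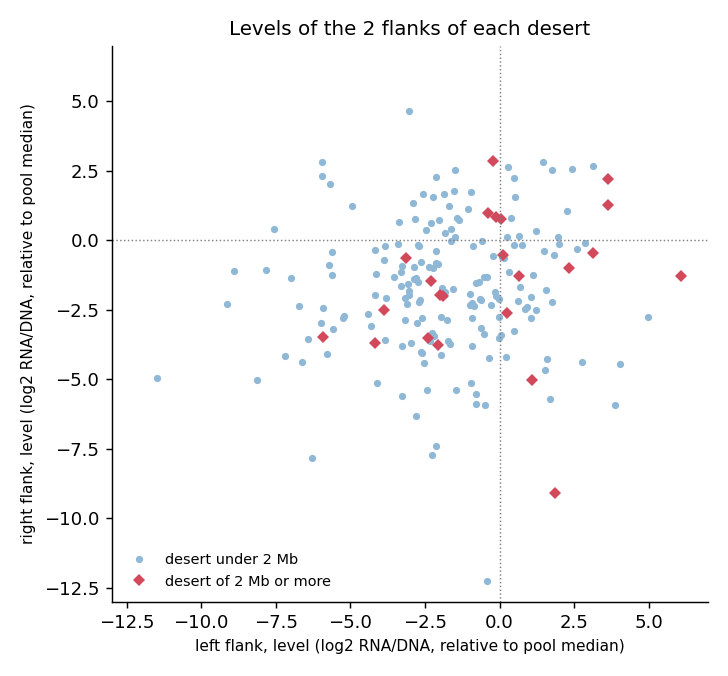
Level of the left flank against the level of the right flank for each of the 204 deserts, with deserts of 2 Mb or more as red diamonds. Of the 204 points, 120 lie at the lower left, where both flanks are below their pool medians, and the points show little slope (r = 0.10).

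No difference by listed strand passed the test. Whether that strand is the reporter's or that of a transposon end is not given in the sources, so which group was transcribed towards the desert is not known. Of edge reporters at 1 desert, 195 were listed as plus on its left or minus on its right and 191 the other way round, with mean levels of −1.65 ± 0.43 and −1.69 ± 0.45 (SD, n = 6 pools). The difference of 0.04 ± 0.66 was positive in 4 pools and negative in 2, from −0.85 to 0.76 (exact sign-flip permutation p = 0.94, adjusted 0.94). That range is the spread of the pools and sets no limit on the size of a difference. DNA shares, a measure of how much of a pool carries a reporter, differed by −0.02 ± 0.13 log2 units between edges and others, from −0.21 to 0.19 (exact sign-flip permutation p = 0.63, adjusted 0.71). The barcodes of edge and other reporters had GC contents of 41.2% and 41.4%.

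The 11 reporters between 2 deserts had a median level of −1.76, and 9 of them lay below their pool median. The most isolated, on chromosome 7 at 11053445 in mPGK-D, lay between deserts of 4.74 and 1.85 Mb with 78 and 73 RNA and 535 and 446 DNA reads, a level of −0.99 that edgeR did not call (adjusted p = 0.0591). On chromosome 9 at 6010047, a reporter of mPGK-F with a desert of 1.82 Mb on either side had 1 and 9 RNA and 637 and 576 DNA reads, a level of −5.94 (edgeR adjusted p = 0.000221). Chromosome 10 at 49505422 (mPGK-B) had a level of −0.63, with cultures at −1.44 and 0.18, and was not called (edgeR adjusted p = 0.37). Chromosome 3 at 77209861 (mPGK-A) had −3.81 and chromosome 17 at 38861470 (mPGK-E) −2.76, both called lower. The 2 above the pool median, on chromosomes 12 (2.59) and 4 (1.77), were named after their values were seen.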

How the data were processed

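RNA (expression) and DNA (normalization) barcodes of 6 pools in 2 cultures each were sequenced, and positions came from inverse PCR after DpnII digestion, per the labels' protocols. The authors deposited raw counts per integration and culture. Bowtie2 2.0 and mm9 were used, per the submitters' processing notes. The sources used here do not say how PCR replicates were combined or from which base positions count. Totals are sums over listed barcodes. PCR reads without molecular identifiers are not independent molecules, so intervals and floors cover counting error only.

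Counts were compared within pools by edgeR's quasi-likelihood test (version 4.0.16, R 4.3.3) after TMM scaling shifted to a median of 0, and its filter on low counts removed 0 barcodes, with DESeq2 1.42.0 as an alternative. Before the shift the pool medians were −0.27 to −0.23 log2 units. Pool values were tested by exact sign-flip permutation (64 patterns, two-sided) with adjustment over 8 tests. Other values came from pandas 2.3.3, numpy 2.4.6, scipy 1.17.1 and matplotlib 3.10.9 under Python 3.11.15. Both kinds of test were also run on simulated data. In the edgeR simulation only a small part of the barcodes was changed, whereas most real integrations were called. That run therefore does not check the calls made here. Replicate numbers pair RNA and DNA of the same culture, per the labels, and their deviations correlated at −0.00212 to 0.0576. Barcodes found in several pools occurred in 1024 integrations, 18 of them edges.

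Members and tests were chosen with earlier results of these data known. Named items were the 10 largest deserts, the 5 highest and 5 lowest edges by level, the 5 reporters between the largest pairs of deserts, and the chromosomes with most and fewest deserts.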

Additional observations from a re-analysis of the deposited data

How the results depend on the processing

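Of 69 tests repeated under other settings, 40 kept their direction and their side of the threshold. Without 1 pool, where 5 pools cannot reach 0.05 and no test was made, 43 of 48 values kept their direction, and 13 of 14 counts or shares of calls stayed within 1.5 times. With 5 RNA reads added, the difference between edges and others was −1.37, at equal density −0.60, between order 1 and orders 6 to 10 −1.16, and within 500 kb −0.23 (adjusted p = 0.0625 each), and the excess of very low reporters was 4.28 points (0.0833). Without integrations in the lowest 10% of DNA counts they were −1.57, −0.73, −1.30 (0.0625 each), −0.29 (0.10) and 9.93 points (0.0625). Adjusted values of 0.0625 arise where fewer of the 8 tests have the smallest p. For deserts of 1.5 Mb or more they were −1.38, −0.88 by order (0.0625 each), −0.14 within 500 kb (0.59) and 8.03 points (0.0625). For deserts of 2 Mb or more they were −0.56 (0.19), −0.37 by order (0.88), 0.54 within 500 kb, the opposite direction (0.19), and 0.19 points (adjusted p of 1), with 26.1% of edges called higher. The cause was not tested. The equal-density difference was −0.12 (0.58) with neighbours counted within 500 kb, and the difference within 200 kb was −0.21 (0.13).

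The difference between deserts of 2 Mb or more and smaller ones was 1.13 without replicate 1 (adjusted p = 0.0417), 1.00 without replicate 2 and 1.35 without mPGK-F. Chosen after seeing the data, it was 0.65 without chromosome 7 (0.0833) and 0.70 at equal density (0.17). A split at 3 Mb gave no value, since mPGK-C has no such edge. The strand difference, never past the threshold, was −0.0251 with 5 RNA reads added, −0.0222 without replicate 1, −0.104 without mPGK-A, −0.0245 without mPGK-B, −0.0357 without mPGK-D, −0.00514 without mPGK-F, and −0.207, −0.47 and −0.0717 for deserts of 0.75, 1.5 and 2 Mb or more. The DNA share difference was −0.0401 without replicate 1 and 0.000891 without replicate 2, 0.0187 without mPGK-D, and 0.0824 and 0.121 for deserts of 1.5 and 2 Mb or more.

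With a replicate block in the edgeR fit, 239 edges were called lower and 64 higher, against 240 and 63 without it. TMM without the shift gave 256 (64.5%) and 57 (14.4%), against 38.3% lower and 32.8% higher of all integrations, and DESeq2 gave 248 (62.5%) and 61 (15.4%), against 35.9% and 34.6%. EdgeR fits without a replicate were not run, since 1 RNA and 1 DNA count leave no residual degrees of freedom. Differences for reporters with few RNA reads are limited by depth.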

Other observations

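Between neighbouring deserts of the same chromosome lay 185 stretches with integrations, 11 of them a single reporter. The 34 stretches shorter than 1 Mb, with 125 integrations, had a mean of stretch means of −1.60, and 7 were above 0. The 151 longer ones had −0.61, and 49 were above 0. Both values include the edge reporters at the ends of each stretch, which make up a larger part of short stretches. They are therefore not separate from the difference between edges and others. On chromosome 7, 6 stretches of more than 1 reporter lay between the first and the last desert of 2 Mb or more. In order along the chromosome, 5 integrations from 12908115 to 13599549 averaged 1.53, and 0.39 without the reporter at 13599549. The next held 12 integrations from 16482655 to 17464949 with a mean of 0.23, then 14 from 18489225 to 20516138 averaged 1.63. From 24872168 to 31739886, 79 integrations averaged 1.27, with 60 above their pool medians. The last 2 held 58 integrations from 34892826 to 39029964 with a mean of 0.36 and 51 from 47059349 to 54257785 with a mean of −0.02. This region was chosen after its values were seen.

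The X chromosome, outside the rule used for the autosomes, held 348 integrations and 39 deserts of 1 Mb or more. They covered 81.0 Mb, or 50.8% of its listed span, with the largest at 11.6 Mb. Its 67 edge reporters (19.3% of its integrations) had a mean level of −1.53, compared with −0.22 for its other reporters.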
